A study of Mus musculus with 8 samples.

Results

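The genes described here encode the initiation and elongation factors of cytosolic translation, the proteins that start and extend protein synthesis on the ribosome. They were chosen by name: every row whose symbol begins with Eif or Eef followed by a digit from 1 to 6 was taken, apart from the kinases, binding proteins and methyltransferases that carry the prefixes Eif2ak, Eif4ebp, *Eef2k* and Eef1akmt, and apart from symbols marked as pseudogenes. This gave 74 of the 21958 genes in the tables. Of the 74, 56 had at least 1 read and 18 had none in any library. The 18 were *Eif4a3l1*, *Eif4e1b* and 16 genes of the *Eif1ad* series, from *Eif1ad2* to *Eif1ad19*.

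RNA was sequenced from mouse bone marrow-derived monocytes (BMDMs), cells that fuse into bone-resorbing osteoclasts, and every culture received M-CSF at 50 ng/ml and RANKL at 100 ng/ml. The marrow came from mice 4 to 6 weeks old. The *Arid1a* experiment compared 2 control libraries, labelled only CONTROL for genotype, with 2 libraries of *LysM-Cre;Arid1a* fl/fl cells (cKO). There, Cre is expressed from the lysozyme M promoter, which is active in myeloid cells, and deletes floxed exons of *Arid1a*, which encodes a subunit of the BAF chromatin remodelling complex. The JQ1 experiment compared 2 wild-type control libraries with 2 wild-type libraries titled JQ1, after a small molecule that displaces BET proteins from acetylated histones. The JQ1 columns carry codes that were read as untreated and treated, so each direction given for JQ1 rests on that reading, and its libraries are called a and b because no code names a single sample. The study describes the bulk samples of the *Arid1a* groups as biologically independent. No such statement was found for the JQ1 groups, so p-values there measure only the spread between these libraries, which may be technical.

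Initiation begins when eIF2, bound to GTP, brings the initiator tRNA to the small ribosomal subunit, where eIF1, eIF1A and the large scaffold eIF3 assist it. The eIF4 proteins recruit the mRNA through its cap and unwind it, eIF5 and eIF5B complete start-codon recognition and subunit joining, and the exchange factor eIF2B reloads eIF2 with GTP. In elongation, eEF1A delivers each aminoacyl-tRNA, the eEF1B complex reloads eEF1A with GTP, and eEF2 moves the ribosome along. Many mRNAs of the translation machinery begin with a C followed by a run of pyrimidines (a 5′ terminal oligopyrimidine tract), through which the kinase mTOR and the RNA-binding protein LARP1 control their translation in mammals.

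Start sites were looked at because of this shared feature. The tract was searched for on the sense strand as C followed by at least 5 bases that were each C or T, beginning within 5 bases of the annotated start of each gene's canonical transcript (GENCODE vM39, build GRCm39). It was found in 15 of the 55 members tested after *Arid1a* loss (27.3%) and in 2367 of 21757 protein-coding genes (10.9%). The latter were taken whether or not they had reads in these cells, so the sets are not alike. The windows given here run from 15 bases before the start through its first 15 bases, 5′ to 3′ on the transcribed strand, with the tract in capitals. Capitals begin at the first C within the search limit that opens a match. In *Eif2b5* the bases before the capitals are also all C or T, so its pyrimidine run begins upstream of that limit. They show members of elongation and initiation complexes that have it, followed by *Eif5a*, *Eif4a1* and *Eif4g3*, whose levels changed in both experiments and whose windows have none.
Eef1a1, chr9:78388992-78389021, minus strand: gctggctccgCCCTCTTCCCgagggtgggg
Eef1a2, chr2:180799586-180799615, minus strand: actcaaggaacctttgCTTCCTacttgcaa
Eef1g, chr19:8944390-8944419, plus strand: ccccacccctcgCTTTTTCCaactcagcgg
Eif2b5, chr16:20317552-20317581, plus strand: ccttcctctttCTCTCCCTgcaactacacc
Eif2s1, chr12:78908578-78908607, plus strand: tcgtcacagcgCCCTCTCTTggttgactaa
Eif2s3x, chrX:93256301-93256330, minus strand: ccgccttcccgccgCTTCCCCTTCgctccg
Eif3f, chr7:108533606-108533635, plus strand: ttctgttctaggCTCTCTCTCTTTCTCggc
Eif3g, chr9:20809913-20809942, minus strand: gcggccgcggcaccggaagCCTCTTCTact
Eif3k, chr7:28681285-28681314, minus strand: tggtgctgaaagcgCCTTTCCCTTTgcctt
Eif6, chr2:155668831-155668860, minus strand: ccggttcctcatttcctcatCTTTTCattt
Eif5a, chr11:69812223-69812252, minus strand: agagggtggagatcggggagggtccatgcg
Eif4a1, chr11:69563130-69563159, minus strand: aggcgggcactccgccctagattctaagga
Eif4g3, chr4:137720318-137720347, plus strand: cggcgagtggcatctgttatgttaataagt

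The E-box CACGTG, a site that MYC and related factors can bind, was searched for in the 250 bases before and 50 bases after each start, on both strands. Windows of 9 of the 55 members (16.4%) held it, beside 7.82% of the promoters of all protein-coding genes, with or without reads here. The following pieces show the E-box in capitals for members of different roles.
Eef2, chr10:81012410-81012439, plus strand: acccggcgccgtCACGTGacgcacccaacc
Eif5a, chr11:69812269-69812298, minus strand: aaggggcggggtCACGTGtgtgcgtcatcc
Eif5a2, chr3:28835297-28835326, plus strand: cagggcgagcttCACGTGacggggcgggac
Eif3k, chr7:28681340-28681369, minus strand: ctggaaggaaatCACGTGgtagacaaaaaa
Eif4g1, chr16:20491411-20491440, plus strand: ggcagtgggtgtCACGTGatggggcggagc
The cyclic AMP element TGACGTCA was in 1 member window (1.82%) against 2.45% of all promoters, and TATAAA in 5 (9.09%) against 13.2%. A match describes the letters at these starts and is not evidence of binding.

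Levels per gene length (FPKM, fragments scaled to the deposited gene length and to the counted reads of the library) covered a wide range within the family. In the *Arid1a* controls *Eef1a1*, the main eEF1A gene, stood at 3576 ± 314 FPKM (SD, n = 2) and was the 4th most abundant of 11319 tested genes. *Eef2* followed with 766 ± 5.09, *Eif5a* with 344 ± 45.1, *Eef1g* with 289 ± 21.4 and *Eif4a1* with 247 ± 26.2 FPKM. At the low end were *Eif2b3* with 4.50 ± 0.358, *Eif5a2* with 2.01 ± 0.182, *Eef1aknmt*, a methyltransferase of eEF1A rather than a factor, with 1.90 ± 0.231, and *Eif3j2* with 0.841 ± 0.244 FPKM.

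Subunits of 1 complex did not share 1 level. Within eIF3, the largest initiation complex, mean levels in the *Arid1a* controls ran from 11.3 FPKM for *Eif3d* to 151 FPKM for *Eif3b*, *Eif3j2* apart. Neighbours in this order overlapped in places: *Eif3h* lay at 145 ± 16.3 FPKM and *Eif3c* at 136 ± 0.260 FPKM. Within eIF2B, the catalytic epsilon gene *Eif2b5* stood at 32.6 ± 3.22 FPKM and the gamma gene *Eif2b3* at 4.50 ± 0.358 FPKM. Between the experiments, which were done on separate controls and not normalized together, *Eif1* stood at 45.5 ± 5.32 FPKM in the *Arid1a* controls and at 87.7 ± 8.89 FPKM in the JQ1 controls.

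**Figure D1:**
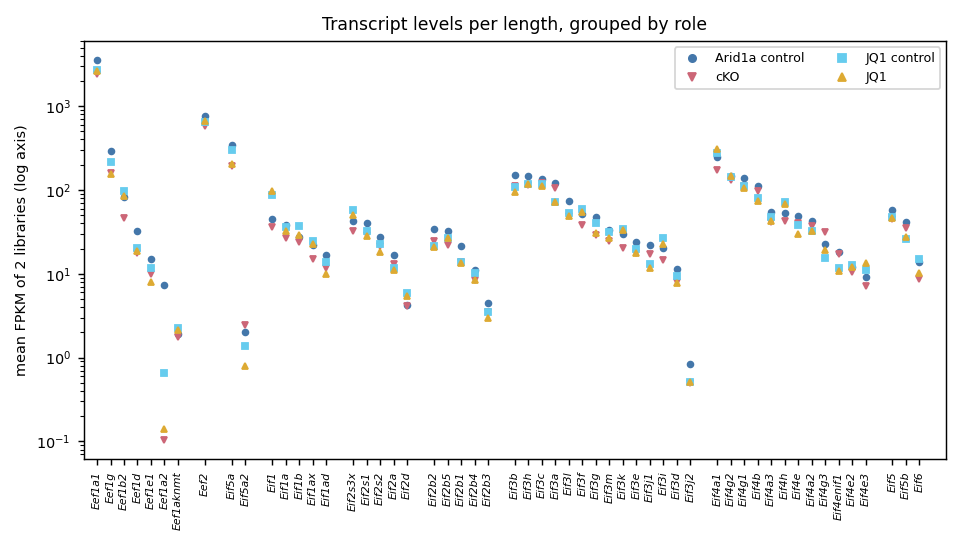
Mean FPKM of 2 libraries per group on a log axis for the tested members, grouped by role, with 1 marker per group; Eif2s3y is left out. Eef1a1 is highest in each group, and Eef1a2 is far lower in the cKO and JQ1 groups than in the Arid1a controls.

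Together the members took 2.55% and 2.39% of all counted reads in the *Arid1a* controls, 1.83% and 1.84% in the cKO libraries, 2.02% and 2.04% in the JQ1 controls and 1.96% and 1.93% after JQ1. *Eef1a1* alone took 0.947% and 0.836% in the *Arid1a* controls, 0.612% and 0.609% in the cKO libraries, 0.667% and 0.679% in the JQ1 controls and 0.663% and 0.650% after JQ1. Both shares were lower in both cKO libraries than in both controls. In bulk samples, fewer cells of a type and less RNA per cell cannot be told apart.

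Library totals ran from 15108239 to 17302136 reads. *Arid1a* had 2616 and 3554 reads in its controls and 2031 and 1888 in the cKO libraries (log2 change -0.65 ± 0.15 SE, adjusted p = 0.00607), a weak check because only part of the gene is deleted. *Hexim1*, a gene known to rise under BET inhibitors, was 1.98-fold higher in the libraries read as JQ1 (log2 change 0.99 ± 0.07 SE, adjusted p = 3.35e-24). The macrophage list of 8 markers had reads for all 8 in every library, with summed levels of 14413 to 16824 CPM in the *Arid1a* controls, 9985 to 10001 in the cKO libraries, 17107 to 18098 in the JQ1 controls and 22150 to 22851 after JQ1. *Lyz2* alone made up 44.5% and 45.4% of the sum in the cKO libraries and 71.9% to 77.0% in the other 6. After *Arid1a* loss *Lyz2* and *Cd14* fell while *Adgre1*, *Csf1r*, *Fcgr3* and *Itgam* rose, with a median log2 change of 0.22 over the 8, and after JQ1 5 rose and 1 fell. The 8 osteoclast markers, 1 of them (*Calcr*) at 0 in every library and 2 at 0 after JQ1, summed to 319 to 323 CPM in the *Arid1a* controls against 125 to 136 in the cKO libraries, and to 153 to 171 in the JQ1 controls against 56.2 to 61.4 after JQ1. *Mmp9* made up 55.7% and 58.9% of the sum in the *Arid1a* controls and 14.0% and 14.9% in the cKO libraries. After *Arid1a* loss 4 of 7 tested fell, *Itgb3* rose, and *Acp5* and *Atp6v0d2* were not called, and after JQ1 5 of 6 fell and *Itgb3* rose. The 10 neutrophil markers summed to 144 to 151 against 248 to 273 CPM in the *Arid1a* experiment and to 91.0 to 91.3 against 36.4 to 36.9 in the JQ1 experiment. Of these 10, *Ly6g* was at 0 in 7 of the 8 libraries. The part of these markers in the changes of the factor genes was not tested. The 2 *Arid1a* controls differed more from each other than the libraries of other groups (17.98 against 2.7, 4.1 and 3.2 chi-square units per degree of freedom), and control 1 was the higher of both in 45 of 55 members, by a median of 0.17 on the log2 scale.

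Levels of single genes are given as CPM, read counts as a rate of the library's total scaled with TMM within each experiment, for each library, with 1 before 2 and a before b. A change was called where its adjusted p in the quasi-likelihood test of edgeR was under 0.05, with Benjamini-Hochberg adjustment over all genes tested.

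Loss of *Arid1a* went with lower levels across most of the family. Of 55 members tested, 32 were lower and 1, *Eif4g3*, was higher, and 22 were not called. Over all 11319 genes, 34.4% were called either way, 16.3% lower and 18.1% higher. The median log2 change was -0.33 over the members and -0.00 over all genes. Both cKO libraries lay below both controls in 47 members, above both in 1 and overlapped them in 7, beside 34.8% of all genes below and 34.4% above. Without cKO library 1 the median log2 change was -0.33 over the members and -0.01 over all genes. Without cKO library 2 these medians were -0.35 and -0.00. Fewer members, and fewer of all genes, were called in both of these fits. Of the 33 calls, 10 were made in every one of 14 alternative fits: *Eef1a1*, *Eef1a2*, *Eef1b2*, *Eef1d*, *Eef1g*, *Eif3g*, *Eif3l*, *Eif4g3*, *Eif5a* and *Eif6*.

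**Figure D2:**
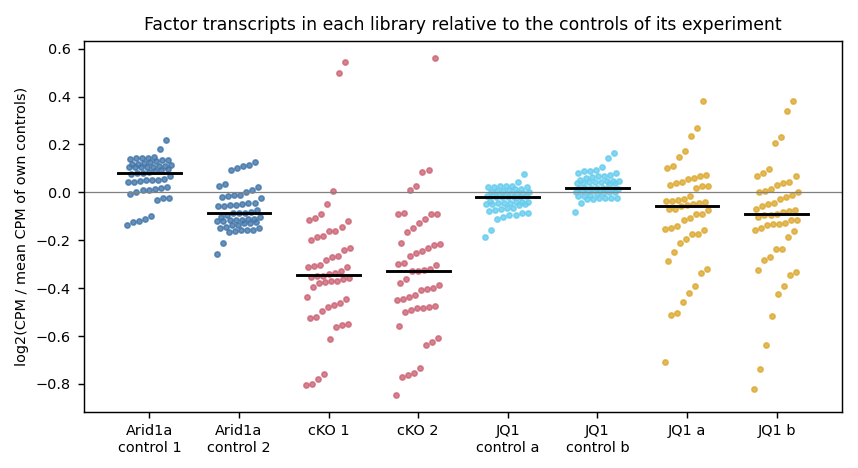
Each point is 1 of 52 members in 1 library, as log2 of its CPM over the mean of the controls of its own experiment; lines mark medians, and Eef1a2, Eif2s3y and Eif3j2 are left out because they had few reads in at least 1 group. Medians were 0.08 and -0.09 in the Arid1a controls, -0.34 and -0.33 in the cKO libraries, -0.02 and 0.02 in the JQ1 controls and -0.06 and -0.09 after JQ1.

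The eEF1 genes had the lowest median of the role groups. Of 7 eEF1 genes, 6 fell and 1, *Eef1aknmt*, was not called, with a median log2 change of -0.77. *Eef1a1* (chr9:78385731-78396433, minus strand, GRCm39) had 9321 and 8129 CPM in the controls and 6254 and 6236 CPM in the cKO libraries. It was 1.40-fold lower (log2 change -0.48 ± 0.09 SE, adjusted p = 0.00229), and no cKO library reached a control. The 3 genes of the exchange complex eEF1B had larger fitted decreases, though differences between genes were not tested. *Eef1g*, its gamma subunit (chr19:8944405-8955843, plus strand), had 779 and 693 CPM in the controls and 421 and 431 CPM in the cKO libraries (log2 change -0.79 ± 0.09 SE, adjusted p = 8.3e-05). *Eef1b2*, the beta subunit that carries exchange activity, had 222 and 187 CPM in the controls and 117 and 123 CPM in the cKO libraries (log2 change -0.77 ± 0.10 SE, adjusted p = 0.000307). *Eef1d*, the delta subunit, had 225 and 183 CPM in the controls and 119 and 113 CPM in the cKO libraries (log2 change -0.81 ± 0.11 SE, adjusted p = 0.000318). The cKO libraries lay below both controls for each of the 3. *Eef1e1*, a scaffold protein of the tRNA synthetase complex, was 1.42-fold lower (log2 change -0.51 ± 0.11 SE, adjusted p = 0.0055).

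*Eef2*, the translocation factor (chr10:81012465-81018332, plus strand), had 2518 and 2464 CPM in the controls and 1956 and 2021 CPM in the cKO libraries. It was 1.25-fold lower (log2 change -0.33 ± 0.08 SE, adjusted p = 0.0101), and lost its call without either cKO library, where the adjusted p reached 0.271. *Eif5a*, a factor modified with hypusine that helps ribosomes past stretches that are hard to translate, such as runs of proline, had 880.1 and 722 CPM in the controls and 474 and 472 CPM in the cKO libraries. It was 1.69-fold lower (log2 change -0.76 ± 0.10 SE, adjusted p = 0.000271), and its cKO libraries differed from each other by far less than the controls did. *Eif5a2*, its low-abundance paralog, had 10.6 and 9.20 CPM in the controls and 14.4 and 10.5 CPM in the cKO libraries, which overlapped, and it was not called (log2 change 0.33 ± 0.19 SE, adjusted p = 0.214). Of the annotated exon bases of *Eif5a*, 31.8% overlap genes on the other strand, and the strand setting of the counting is not given in the sources used here. The same limit holds for other members called lower, among them *Eif3d* (32.5%), *Eif2s1* (31.1%), *Eif1ad* (29.9%) and *Eif3m* (25.5%).

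In the group of eIF1 and eIF1A genes, which act in scanning for the start codon and were counted together with *Eif1ad*, 3 of 5 fell. The median was -0.44. These were *Eif1a* (log2 change -0.44 ± 0.09 SE, adjusted p = 0.00449), its X-linked paralog *Eif1ax* (log2 change -0.49 ± 0.10 SE, adjusted p = 0.00398) and *Eif1ad*, which encodes a protein with an eIF1A-like domain (log2 change -0.48 ± 0.12 SE, adjusted p = 0.0128). *Eif1ax* had 118 and 109.8 CPM in the controls and 77.1 and 84.7 CPM in the cKO libraries, without overlap. *Eif1*, the gatekeeper of start-codon choice, had 102 and 85.1 CPM in the controls and 75.2 and 80.6 CPM in the cKO libraries and was not called (log2 change -0.26 ± 0.11 SE, adjusted p = 0.101). In each of *Eif1*, *Eif1a*, *Eif1ad* and *Eif1ax* the cKO libraries were below both controls, and in *Eif1b* they overlapped.

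Of 6 genes in the eIF2 group, 4 fell. They were *Eif2s1*, the alpha subunit whose phosphorylation slows initiation under stress, *Eif2s2* (beta), *Eif2s3x* (gamma) and *Eif2a*, a separate initiator-tRNA binding protein. *Eif2s1* (chr12:78908593-78933784, plus strand) had 210.4 and 179 CPM in the controls and 148 and 149.8 CPM in the cKO libraries (log2 change -0.39 ± 0.10 SE, adjusted p = 0.0136). *Eif2s3x* had 149 and 170.3 CPM in the controls and 124 and 128 CPM in the cKO libraries (log2 change -0.34 ± 0.10 SE, adjusted p = 0.0226). Both were below the controls in both cKO libraries, and neither call held without cKO library 1 or without cKO library 2. *Eif2d*, which can deliver tRNA without GTP, had 31.6 and 29.3 CPM in the controls and 29.5 and 32.6 CPM in the cKO libraries, and the groups overlapped.

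The exchange factor eIF2B had lower levels in both cKO libraries than in both controls for all 5 subunit genes, and 3 of the 5 passed the test. *Eif2b5*, the catalytic epsilon subunit, had 89.0 and 76.5 CPM in the controls and 56.4 and 59.2 CPM in the cKO libraries (log2 change -0.52 ± 0.11 SE, adjusted p = 0.00506). *Eif2b1* (alpha) had 55.4 and 52.3 CPM in the controls and 38.2 and 34.9 CPM in the cKO libraries (log2 change -0.56 ± 0.11 SE, adjusted p = 0.00308), although 31.5% of its exon bases overlap genes on the other strand. *Eif2b2* (beta) was 1.32-fold lower (log2 change -0.40 ± 0.11 SE, adjusted p = 0.0177). *Eif2b3* (gamma) and *Eif2b4* (delta) were not called, with 30.5 and 26.9 CPM in the controls and 23.8 and 22.9 CPM in the cKO libraries for *Eif2b3*.

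Of 14 eIF3 genes, 9 fell and 5 were not called, with a median of -0.39. *Eif3g*, an RNA-binding subunit, had 102 and 82.8 CPM in the controls and 63.1 and 54.7 CPM in the cKO libraries (log2 change -0.65 ± 0.13 SE, adjusted p = 0.00292). *Eif3l* had 275 and 257 CPM in the controls and 184 and 180.5 CPM in the cKO libraries (log2 change -0.54 ± 0.09 SE, adjusted p = 0.000892). In both genes the groups did not overlap. The other 7 called were *Eif3b*, *Eif3d*, *Eif3e*, *Eif3f*, *Eif3i*, *Eif3k* and *Eif3m*, with log2 changes between -0.50 and -0.37. *Eif3a*, the largest scaffold subunit, had 938 and 1106 CPM in the controls and 949.8 and 946 CPM in the cKO libraries, and control 1 lay below both cKO libraries. *Eif3c*, *Eif3h*, *Eif3j1* and *Eif3j2* were below the controls in both cKO libraries but not called.

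The cap-binding and unwinding factors had the median nearest 0, -0.17, and held *Eif4g3*, the member that rose. Of 12 tested, 3 fell and 8 were not called. *Eif4g3*, a scaffold that joins the cap-binding protein to the helicase (chr4:137720333-137935819, plus strand), had 222 and 266 CPM in the controls and 345 and 360.2 CPM in the cKO libraries. It was 1.45-fold higher (log2 change 0.53 ± 0.10 SE, adjusted p = 0.00251), and both cKO libraries exceeded both controls. Its more abundant paralog *Eif4g1* had 923 and 1068 CPM in the controls and 818 and 836 CPM in the cKO libraries and fell (log2 change -0.27 ± 0.09 SE, adjusted p = 0.0454), a call that was lost without cKO library 1 and without cKO library 2 (adjusted p up to 0.384). The ratio of *Eif4g3* to *Eif4g1* by FPKM was 0.159 and 0.164 in the controls and 0.278 and 0.284 in the cKO libraries. *Eif4a1*, the main helicase, had 1132 and 961 CPM in the controls and 768 and 754 CPM in the cKO libraries and was 1.38-fold lower (log2 change -0.46 ± 0.09 SE, adjusted p = 0.00389). Its paralog *Eif4a2* had 223 and 217 CPM in the controls and 197 and 207 CPM in the cKO libraries and was not called (log2 change -0.12 ± 0.09 SE, adjusted p = 0.301). Also lower was *Eif4a3*, a helicase of the exon junction complex (log2 change -0.33 ± 0.12 SE, adjusted p = 0.0478). *Eif4e*, the cap-binding protein, had 309 and 265 CPM in the controls and 252 and 247 CPM in the cKO libraries and did not pass (log2 change -0.20 ± 0.10 SE, adjusted p = 0.133). *Eif4g2*, a scaffold that lacks the site for the cap-binding protein, likewise did not pass (log2 change -0.09 ± 0.08 SE, adjusted p = 0.418).

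Among the factors of subunit joining, *Eif5*, which triggers GTP hydrolysis on eIF2, had 386 and 386 CPM in the controls and 312 and 314 CPM in the cKO libraries and fell (log2 change -0.30 ± 0.08 SE, adjusted p = 0.016). *Eif6*, which keeps free large subunits from joining too early, had 41.8 and 31.9 CPM in the controls and 24.1 and 24.2 CPM in the cKO libraries and fell (log2 change -0.61 ± 0.14 SE, adjusted p = 0.00832). *Eif5b* had 416 and 373 CPM in the controls and 343 and 361 CPM in the cKO libraries, below the controls but not called. Of the 15 members with a pyrimidine tract matched at the annotated start, 12 were called lower after *Arid1a* loss, and of the 40 without a match 20 were. The match rests on the annotated start of the canonical transcript alone, and the starts used in these cells were not measured. Members without a match, among them *Eef2* and *Eef1b2*, may therefore have a tract at another start. The split was not tested, and both *Eef1g*, with a match, and *Eif5a*, without it, were among those that fell.

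**Figure D3:**
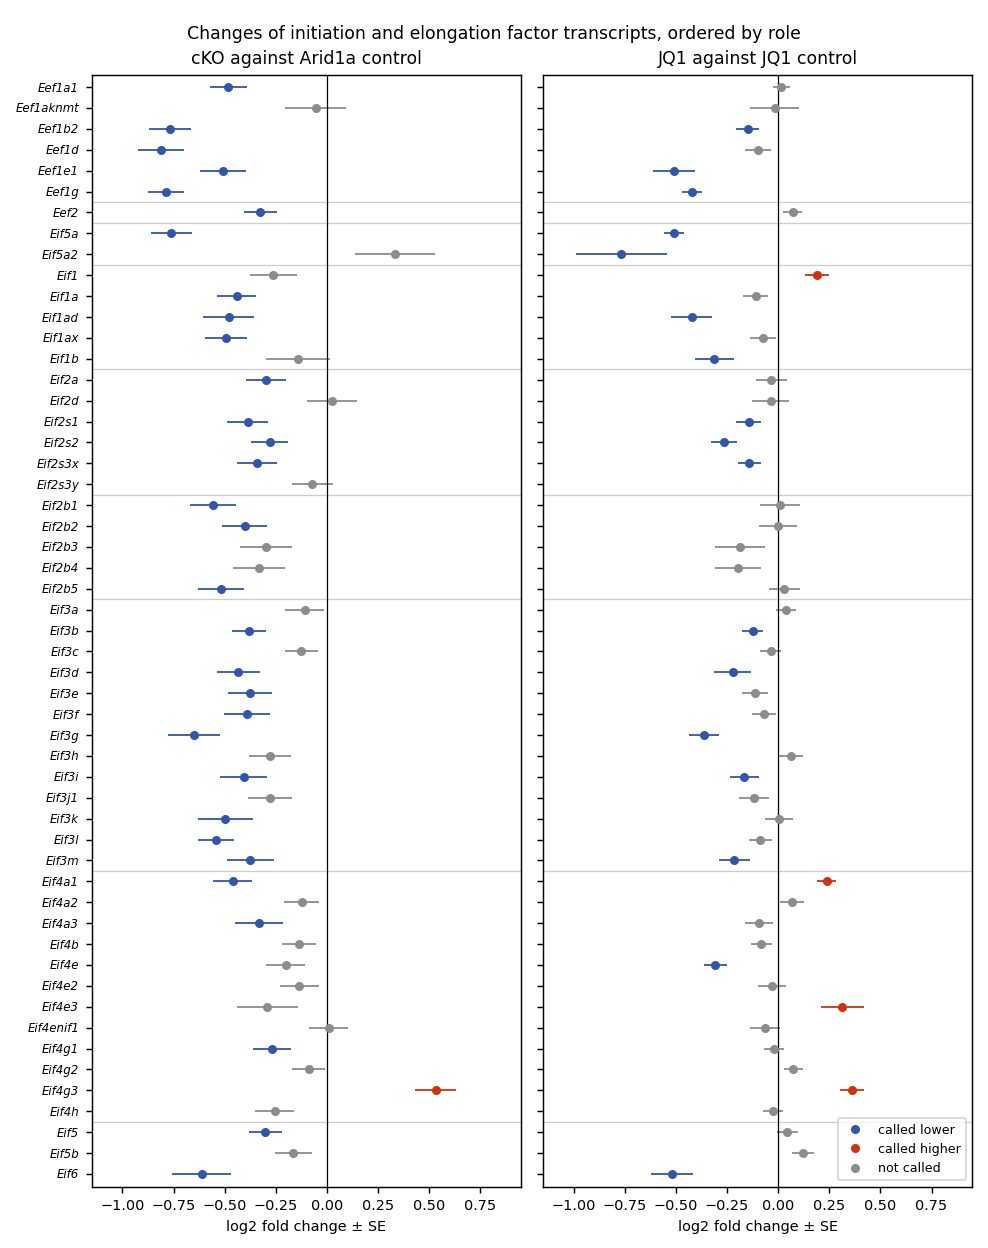
Fitted log2 changes with standard errors for members in the Arid1a (left) and JQ1 (right) experiments, ordered by role; colour marks the call, and Eef1a2 and Eif3j2 are left out. Most points of the left panel lie below 0, with 32 called lower of 55 tested, while the right panel is nearer 0 and has 4 members called higher.

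After JQ1, the share of members called was close to that of all genes, and more of the calls were lower than higher. Of 54 tested, 18 were lower and 4 higher (*Eif1*, *Eif4a1*, *Eif4e3* and *Eif4g3*), and 32 were not called. The 22 called are 40.7% of the members. Over all 11352 genes, 39.8% were called either way, 20.5% lower and 19.3% higher. The median log2 change was -0.08 over the members and 0.00 over all genes. Both JQ1 libraries lay below both controls in 30 members and above both in 11, beside 34.2% of all genes below and 34.2% above. The split depended on the scaling: with an offset for gene length, which moved the median of all genes to 0.10, it became 12 higher and 10 lower. With 1 library left out, the median log2 change over the members ran from -0.10 (without control a) to -0.05 (without control b or JQ1 library b). Over all genes it ran from 0.00 to 0.01. Fewer members, and fewer of all genes, were called in each of these fits. DESeq2 called 10 members with all 4 libraries (18.5%, beside 23.0% of all genes). Of the 22 calls, 10 were made in every one of 13 alternative fits: *Eef1e1*, *Eef1g*, *Eif1ad*, *Eif2s2*, *Eif3g*, *Eif4a1*, *Eif4e*, *Eif4g3*, *Eif5a* and *Eif6*.

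*Eef1g* fell again, with 538 and 575 CPM in the controls and 416 and 415 CPM in the JQ1 libraries (log2 change -0.42 ± 0.05 SE, adjusted p = 2.14e-12). *Eif5a* had 683 and 730.0 CPM in the controls and 498 and 494 CPM in the JQ1 libraries and was 1.42-fold lower (log2 change -0.51 ± 0.05 SE, adjusted p = 7.41e-17). In both genes the JQ1 libraries lay well below the controls, and both calls held in each of 13 alternative fits. *Eif5a2*, at a level of a few CPM, fell as well: it had 7.26 and 6.5 CPM in the controls and 4.21 and 3.89 CPM in the JQ1 libraries (log2 change -0.77 ± 0.22 SE, adjusted p = 0.00355). *Eef1e1* had 37.9 and 36.6 CPM in the controls and 28.4 and 24.0 CPM in the JQ1 libraries (log2 change -0.51 ± 0.10 SE, adjusted p = 1.7e-05).

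*Eef1a1* had 6532 and 6692 CPM in the controls and 6749 and 6625 CPM in the JQ1 libraries, which overlapped, and was not called (log2 change 0.02 ± 0.04 SE, adjusted p = 0.8; its sign turned negative in the fit on FPKM). *Eef2* had 2172 and 2106 CPM in the controls and 2251 and 2240.2 CPM in the JQ1 libraries and was not called either (log2 change 0.07 ± 0.04 SE, adjusted p = 0.214). *Eef1b2* fell slightly (log2 change -0.15 ± 0.06 SE, adjusted p = 0.0225), a call made in 7 of 13 alternative fits, and its sign turned with the gene length offset, while *Eef1d* had 124 and 138 CPM in the controls and 125 and 119 CPM in the JQ1 libraries and overlapped. Of the 7 eEF1 genes 4 fell in all, with a median of -0.15.

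Among initiation factors, *Eif6* had 37.3 and 42.4 CPM in the controls and 32.0 and 23.9 CPM in the JQ1 libraries (log2 change -0.52 ± 0.10 SE, adjusted p = 2.27e-05). *Eif3g* had 78.4 and 80.4 CPM in the controls and 62.9 and 60.6 CPM in the JQ1 libraries (log2 change -0.36 ± 0.07 SE, adjusted p = 3.03e-05), and 4 further eIF3 genes of the 14 fell: *Eif3b*, *Eif3d*, *Eif3i* and *Eif3m*, by 0.13 to 0.22 on the log2 scale. Each of these 4 calls was made in only 5 to 7 of the 13 alternative fits. Of 5 eIF2 genes tested, *Eif2s1*, *Eif2s2* and *Eif2s3x* fell, of which the call of *Eif2s2* alone held in every alternative fit. *Eif2s2* had 147 and 156 CPM in the controls and 127 and 125 CPM in the JQ1 libraries (log2 change -0.27 ± 0.06 SE, adjusted p = 0.000221). *Eif1ad* (-0.42) and *Eif1b* (-0.31) fell in the group of eIF1 and eIF1A genes. The call of *Eif1ad* was made in all 13 alternative fits and that of *Eif1b* in 8. Among the 5 eIF2B genes the smallest adjusted p was 0.165, for *Eif2b4*, and *Eif2b5* had 67.2 and 69.0 CPM in the controls and 70.9 and 68.4 CPM in the JQ1 libraries, with overlap.

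The cap-binding group went both ways. *Eif4e* had 226 and 226 CPM in the controls and 185 and 179 CPM in the JQ1 libraries and was 1.24-fold lower (log2 change -0.31 ± 0.06 SE, adjusted p = 2.14e-06). *Eif4e3*, a cap-binding paralog of low abundance, had 24.1 and 30.8 CPM in the controls and 32.4 and 35.8 CPM in the JQ1 libraries and rose (log2 change 0.31 ± 0.10 SE, adjusted p = 0.0118). *Eif4a1* had 1127 and 1197 CPM in the controls and 1399 and 1342 CPM in the JQ1 libraries and rose (log2 change 0.24 ± 0.05 SE, adjusted p = 1.14e-05), and both JQ1 libraries exceeded both controls. *Eif4g3* had 169 and 164 CPM in the controls and 217 and 211 CPM in the JQ1 libraries and was 1.28-fold higher (log2 change 0.36 ± 0.06 SE, adjusted p = 5.62e-08). Its FPKM ratio to *Eif4g1* went from 0.138 and 0.139 in the controls to 0.179 and 0.183 after JQ1. *Eif1* had 167 and 194 CPM in the controls and 200.3 and 212 CPM in the JQ1 libraries and rose (log2 change 0.19 ± 0.06 SE, adjusted p = 0.0059), as did *Eif4e3*, but neither call held without control a or without JQ1 library b. Of the exon bases of *Eif1*, 39.1% overlap genes annotated on the other strand. Of the 15 members with a start tract 8 were called lower after JQ1, and of the 39 tested without it 10 were. This split, on the same annotated starts, was not tested either.

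Calls in both experiments could be set side by side, since each has its own controls. Lower in both were 15 members, 46.9% of the 32 lower after *Arid1a* loss and 83.3% of the 18 lower after JQ1. Of 10987 genes tested in both experiments, 6.12% were called lower in both, which is 37.6% of those lower after *Arid1a* loss and 30.3% of those lower after JQ1. These shares have unlike base rates. After *Arid1a* loss 32 of 55 members were lower, beside 16.3% of all genes, and after JQ1 18 of 54, beside 20.5%. Whether the overlap exceeds what these rates give was not tested. The 15 were *Eef1a2*, *Eef1b2*, *Eef1e1*, *Eef1g*, *Eif1ad*, *Eif2s1*, *Eif2s2*, *Eif2s3x*, *Eif3b*, *Eif3d*, *Eif3g*, *Eif3i*, *Eif3m*, *Eif5a* and *Eif6*. For 8 of the 15 the JQ1 call was lost in some alternative fit, and for 4 (*Eef1g*, *Eif3g*, *Eif5a* and *Eif6*) both calls were made in every one. *Eif4g3* was higher in both, and *Eif4a1* was lower after *Arid1a* loss and higher after JQ1. Lower after JQ1 without a call after *Arid1a* loss were *Eif1b*, *Eif4e* and *Eif5a2*.

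Whether the responses differed was tested as an interaction over the 8 libraries (*Arid1a* response minus JQ1 response, log2). Of 55 members, 20 had a lower value after *Arid1a* loss than after JQ1 and 1, *Eif5a2*, a higher one. Over all 11767 genes, 28.3% were called, 12.5% lower and 15.8% higher. In elongation, 5 of 7 eEF1 genes and *Eef2* were called. *Eef1a1* was among them (difference -0.50 ± 0.09 SE, adjusted p = 0.000821), as were *Eef1d* (difference -0.71 ± 0.13 SE, adjusted p = 0.000774) and *Eef1b2* (difference -0.62 ± 0.12 SE, adjusted p = 0.00103). *Eef2* followed (difference -0.40 ± 0.08 SE, adjusted p = 0.00178). All 4 were called in every one of 15 alternative fits. With the gene length offset 41 members were called (74.5%, beside 42.0% of all genes), 40 of them lower, and the median of all genes moved to -0.17. With 1 library left out, the median difference over the members ran from -0.34 (without *Arid1a* control 2) to -0.18 (without *Arid1a* control 1). Over all genes it ran from -0.03 to -0.02 in these fits. More members, and more of all genes, were called without either *Arid1a* control. Fewer members, and fewer of all genes, were called without a cKO library or without a library of the JQ1 experiment.

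In initiation, the difference was called for 3 of 5 eIF2B genes, among them *Eif2b5* (difference -0.55 ± 0.13 SE, adjusted p = 0.00436), and for 4 of 14 eIF3 genes, among them *Eif3l* (difference -0.46 ± 0.10 SE, adjusted p = 0.00211). Among the 6 eIF2 genes the smallest adjusted p was 0.0847. *Eif4a1* had the opposite signs described above (difference -0.70 ± 0.11 SE, adjusted p = 0.000116). *Eif5* fell after *Arid1a* loss and was not called after JQ1 (difference -0.35 ± 0.09 SE, adjusted p = 0.00717). *Eif1* and *Eif4e3*, both called higher after JQ1, also differed (difference -0.46 ± 0.14 SE, adjusted p = 0.02 for *Eif1* and difference -0.61 ± 0.20 SE, adjusted p = 0.0317 for *Eif4e3*). For each of them the difference was called in 10 of 15 alternative fits and the JQ1 change in 8 of 13. For *Eif5a2* the difference was 1.10 ± 0.28 (SE, adjusted p = 0.00852), and it was lost without cKO library 1.

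*Eef1a2*, the eEF1A paralog known from muscle and neurons (chr2:180789446-180798807, minus strand, GRCm39), had the largest fitted change of the tested members in both experiments. It had 260 and 225 reads in the *Arid1a* controls and 3 and 4 in the cKO libraries, against 153142 and 126316 and then 101059 and 97319 for *Eef1a1*. The read ratio of controls to cKO was 72 (95% interval 34.7 to 180, counting error only), and the fitted change was -6.05 ± 0.32 on the log2 scale (SE, adjusted p = 3.72e-07). In the JQ1 experiment it had 21 and 22 reads in the controls and 0 and 10 after JQ1. That ratio was 4.5 (2.22 to 10), with a fitted change of -2.10 ± 0.63 (SE, adjusted p = 0.00454). That call was lost without JQ1 library a, which has 0 reads (adjusted p = 0.483), and with DESeq2.

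As a share of all *Eef1a1* and *Eef1a2* reads, *Eef1a2* made up 0.169% (exact 95% binomial interval 0.150 to 0.191) and 0.178% (0.155 to 0.203) in the *Arid1a* controls. In the cKO libraries it made up 0.00297% (0.000612 to 0.00867) and 0.00411% (0.00112 to 0.0105). The JQ1 controls had 0.0201% (0.0124 to 0.0307) and 0.0209% (0.0131 to 0.0317), and the JQ1 libraries 0% (up to 0.00365) and 0.00889% (0.00426 to 0.0164). These intervals cover counting error only. The *Arid1a* controls were thus above every other library, and the JQ1 controls below them by more than counting error. *Eef1a2* shares 0.796% of its 50-base words with transcripts of other genes, whereas *Eef1a1* shares 59.2%, mostly with pseudogenes, so the counts of *Eef1a1* are uncertain where reads fit both. *Eef1g* (64.3%) and *Eif4a1* (65.2%) likewise share most of their words with other genes, and their counts carry the same uncertainty.

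Muscle and neuron markers were near 0 in every library. The 7 muscle markers summed to 0.913 and 1.16 CPM in the *Arid1a* controls and to 1.73 and 1.47 CPM in the cKO libraries, and to 2.87 to 4.57 CPM in the JQ1 experiment. The 6 neuron markers summed to 0.255 to 0.938 CPM over the 8 libraries. *Eef1a2* itself stood at 15.8 and 14.5 CPM in the *Arid1a* controls. The difference between its responses was -3.96 ± 1.02 (SE, adjusted p = 0.00863), but it turned to 1.36 (adjusted p = 0.633) without JQ1 library b, which left the library with 0 reads alone in its group.

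**Figure D4:**
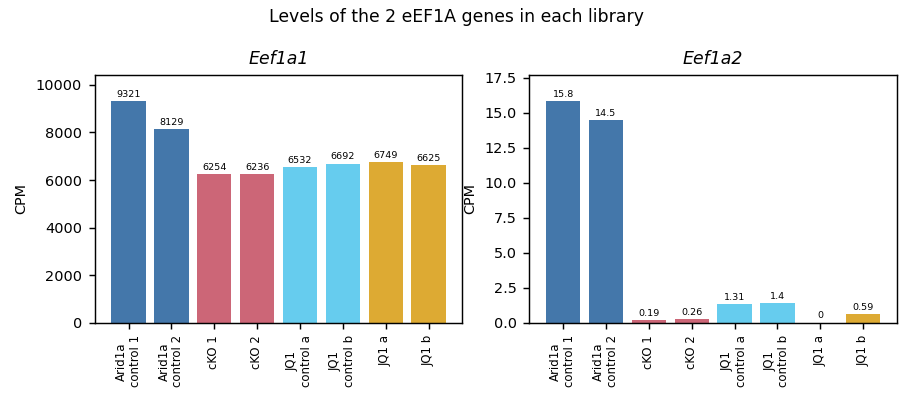
CPM of Eef1a1 and Eef1a2 in each of the 8 libraries; each bar is 1 library, coloured by group, and the vertical axes differ. Eef1a2 is at 15.8 and 14.5 CPM in the Arid1a controls and at or under 1.40 CPM in every other library.

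The gamma subunit of eIF2 has an X-linked and a Y-linked gene in the mouse, and the experiments differed in the latter. *Eif2s3y* had 1725, 1510, 1510 and 1544 reads in the 4 libraries of the *Arid1a* experiment and 2, 1, 2 and 1 in the 4 of the JQ1 experiment. Other Y-linked genes went the same way: *Ddx3y* had 938 to 1353 reads in the *Arid1a* experiment and 0 to 7 in the JQ1 experiment, and *Kdm5d* had 509 to 678 and 0 to 3. Within the *Arid1a* experiment *Eif2s3y* had 105 and 97.2 CPM in the controls and 93.5 and 98.9 CPM in the cKO libraries, which overlapped (log2 change -0.07 ± 0.10 SE, adjusted p = 0.614). *Eif2s3x* had 215 and 211 CPM in the controls and 184 and 202 CPM in the JQ1 libraries in the JQ1 experiment (log2 change -0.14 ± 0.06 SE, adjusted p = 0.0359). By FPKM, *Eif2s3x* was at 42.9 ± 4.36 in the *Arid1a* controls and 56.9 ± 1.09 in the JQ1 controls, and *Eif2s3y* at 24.8 ± 1.14 in the former. The Y-linked genes had reads in all 4 libraries of the *Arid1a* experiment and were near 0 in both groups of the JQ1 experiment, and in the comparison of responses this cannot be told apart from the experiment.

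**Figure D5:**
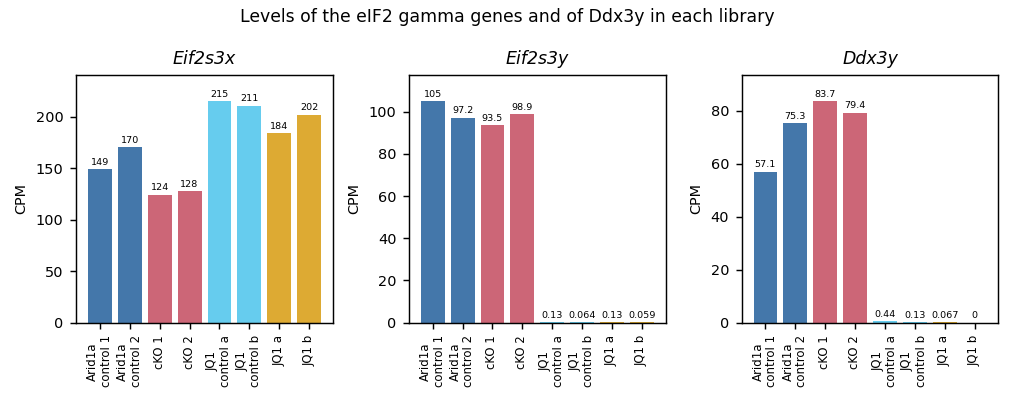
CPM of the X-linked Eif2s3x, the Y-linked Eif2s3y and the Y-linked Ddx3y in each of the 8 libraries; each bar is 1 library, coloured by group. Both Y-linked genes are near 0 in the 4 JQ1-experiment libraries and Eif2s3x is present in all 8.

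The proteins that act on these factors were followed as lists of their own, to be read beside the 34.4% of all genes called after *Arid1a* loss and the 39.8% after JQ1. Of 7 kinases and phosphatase subunits of eIF2, 1 rose after *Arid1a* loss: *Eif2ak2* (PKR), the kinase of double-stranded RNA, had 139.9 and 147 CPM in the controls and 285 and 278 CPM in the cKO libraries (log2 change 0.97 ± 0.09 SE, adjusted p = 1.71e-05). After JQ1 it fell to 91.2 and 95.4 CPM from 163 and 148 (log2 change -0.73 ± 0.06 SE, adjusted p = 4.09e-19), while 2 others of the 7 rose. Of 13 tested modifiers of elongation factors 6 fell after *Arid1a* loss and 7 were not called. *Eef2k*, the kinase that inactivates eEF2, had 10.8 and 10.4 CPM in the controls and 3.40 and 4.17 CPM in the cKO libraries (log2 change -1.49 ± 0.21 SE, adjusted p = 0.000345), and *Dhps*, which starts the hypusine modification of eIF5A, had 15.2 and 10.0 CPM in the controls and 5.88 and 6.79 CPM in the cKO libraries (log2 change -0.99 ± 0.23 SE, adjusted p = 0.00666). After JQ1, 1 of the 13 rose and 2 fell, and neither *Eef2k* nor *Dhps* was called.

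In the list of cap-binding control, 1 of 14 rose and 2 fell after *Arid1a* loss, and 4 rose and 2 fell after JQ1. *Mknk2*, a kinase of eIF4E, had 134 and 143 CPM in the controls and 187 and 193 CPM in the cKO libraries in the *Arid1a* experiment (log2 change 0.46 ± 0.09 SE, adjusted p = 0.00298) and 182 and 174 CPM in the controls and 328 and 335 CPM in the JQ1 libraries in the JQ1 experiment (log2 change 0.90 ± 0.05 SE, adjusted p = 1.23e-30). *Eif4ebp1*, which holds eIF4E inactive, fell in both (-0.48 and -0.23). Of 12 poly(A)-binding and accessory proteins, 5 fell and 7 were not called after *Arid1a* loss, among the former *Pabpc4* (-1.02) and *Pabpc1* (-0.54), the main cytoplasmic poly(A)-binding protein. After JQ1, 3 rose and 2 fell, the latter *Ltv1* (-0.68) and *Larp1* (-0.24).

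Of 5 termination and recycling factors tested, *Gspt1* (eRF3a, -0.49) and *Abce1* (-0.38) fell after *Arid1a* loss, and both fell after JQ1 as well (-0.27 and -0.14), where *Gspt2* rose (0.79). Mitochondrial translation factors fell in 4 of 11 after *Arid1a* loss and in 3 of 11 after JQ1, the others not being called, and *Tufm*, the mitochondrial counterpart of eEF1A, fell in both (-0.55 and -0.24). Of 22 cytosolic tRNA synthetases and their scaffold proteins, 7 fell after *Arid1a* loss (31.8%) and 6 after JQ1 (27.3%), below the shares of all genes called, and the others were not called. *Kars* fell in both (-0.46 and -0.29), and *Rars* fell after *Arid1a* loss (-0.53). The list medians after *Arid1a* loss ran from -0.30 (elongation factor modifiers) to 0.10 (kinases and phosphatase subunits), and the factor genes themselves had a median of -0.33.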

How the data were processed

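Bulk RNA-seq of 8 libraries was used, 2 in each of 4 groups. Per the study's methods, the authors prepared libraries with NEBNext Ultra II, sequenced them on an Illumina NovaSeq instrument, trimmed reads with Cutadapt, aligned them to GRCm39 with HISAT2 and counted them with HTSeq. For the strand setting and the annotation release, the entry is: not given in the sources used here. The deposited counts are raw whole-number reads per gene. The deposited FPKM values equal those counts per gene length and library total, with relative gaps of at most 1.21e-07. FPKM of the JQ1 experiment was computed here in that way, because 4 of its deposited FPKM columns of per-sample values were not used. Columns with the authors' own fold changes and p-values were left out. Members and gene lists were chosen with earlier results of these data known. Fitted changes of single members are printed for those called with a fold of at least 2, up to 4 with the smallest p in each role class and comparison, 24 preset for their roles, and, for the interaction, the 5 of lowest p among negative and among positive values; other members appear by name in lists, ranges or levels.

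Each experiment was fitted with its own controls with edgeR 4.0.16 under R 4.3.3 (filterByExpr, TMM, robust quasi-likelihood F test, Benjamini-Hochberg adjustment over all genes tested). The standard error is the fitted log2 change divided by the square root of F. Responses were compared as an interaction over 8 libraries. Alternatives used DESeq2 1.42.0, limma 3.58.1 (voom, and trend on log2 of FPKM + 0.1), other scalings and filters, a gene length offset, a replicate block, a fold of at least 2, and fits without 1 library. The procedure was tested on simulated counts. Start sites, promoters, exon overlaps and shared 50-base words came from GENCODE vM39 on GRCm39, in which all 74 gene IDs were found; gene coordinates are those of the deposited files, and 15 of the 74 had the same start and end in both.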

Additional observations from a re-analysis of the deposited data

How the results depend on the processing

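After Arid1a loss, the count of 33 called members (1 higher, 32 lower) lay between 31 and 43 with other scalings, filters, tests or units. *Eif4g3* was the member called higher in each of these fits. The share of members called ran from 56.4% (DESeq2) to 78.2% (gene length offset), beside 26% and 42.2% of all genes in the same 2 fits. Leaving out 1 library gave 12 to 46 called and 11 to 45 lower, with 1 higher each time, and the lone library of a group was then assumed to vary like the other pair. The share of all genes called moved the same way, down without a cKO library and up without a control. Without either cKO library the share of members called was little above that of all genes. With a replicate block 34 were called (1 higher, 33 lower). Numbers 1 and 2 share no stated source, and the deviations of same-numbered libraries had a correlation of 0.0095, so the libraries were not treated as paired. No paired analysis was possible for JQ1 or for the difference because the JQ1 columns are not tied to numbered samples. After JQ1, the 22 calls (4 higher, 18 lower) became 10 with DESeq2 (2 higher, 8 lower, beside 23.0% of all genes) and 12 in 1 fit over 8 libraries (2 and 10). Without the filter they were 18 (5 and 13) and on FPKM 21 (2 and 19). The gene length offset gave 12 higher and 10 lower, 14 of the 22 calls being shared. Leaving out 1 library gave 13 to 19 called, 2 to 4 higher and 9 to 17 lower. For the difference, 21 calls (1 higher, 20 lower) became 41 (1 and 40) with the gene length offset, and leaving out 1 library gave 10 to 35 called, 0 to 3 higher and 9 to 33 lower. A fold of at least 2 left 1 member called in each experiment (0 higher, 1 lower), *Eef1a2*, with an adjusted or an unadjusted p. The cause of these shifts was not tested.

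Changes after JQ1 that turned sign did so on FPKM for *Eif5* (-0.0081) and *Eef1a1* (-0.0356), with the gene length offset for *Eef1b2* (0.0032, from a call at -0.15), *Eif4g1* (0.041) and *Eif1ax* (0.0024), and for *Eif4g1* also without JQ1 control a (0.00931) or JQ1 library b (0.022), the lowest value without a library being -0.0527. The difference for *Eef1a2* ran from -4.87 without JQ1 library a to 1.36 without JQ1 library b. By FPKM the share of *Eef1a2* was 0.208% in the Arid1a controls and 0.0245% in the JQ1 controls. With TMM scaling the share of all members was 2.42% in the Arid1a controls, 1.88% in the cKO libraries, 1.99% in the JQ1 controls and 1.98% after JQ1. With 2 libraries a group, changes within the spread of 1 pair cannot be resolved, and the 7 reads of *Eef1a2* in the cKO libraries set how well its fold is known.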
